A study of Mus musculus with 2 samples.

Results

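Cluster 5 of the mouse incisor cell map was a group of dental pulp mesenchyme cells that lay next to the pulp-like cluster 6. Its members were the cells to which the deposited cell annotation gives cluster number 5 in the clustering of all cells. There were 1444 such cells of 23528 in all, of which 1352 came from the Memo1-mutant library (13820 cells) and 92 from the control library (9708 cells). The study sampled the cervical loop region of the lower incisor at postnatal day 20, with epithelium and mesenchyme, and profiled it with 3′ end single-cell RNA sequencing on the 10x Genomics platform. The mutant animal was 1 Memo1;K14CRE mouse, in which a Cre recombinase driven by the keratin 14 promoter acts in epithelium and not in mesenchyme such as pulp. The other animal was 1 control mouse, whose alleles the labels do not describe further. With 1 mouse and 1 library a group there was no replicate check of any difference between the groups, and genotype, sex, animal, dissection and library cannot be told apart.

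The mouse incisor grows throughout life, and its soft core, the dental pulp, is a mesenchyme of neural crest origin that supplies the odontoblasts, the cells that make dentine. At the apical end of the tooth the pulp mesenchyme lies against the epithelial stem cell niche of the cervical loop and signals to it through FGF, BMP, Wnt and activin family proteins. MEMO1, whose gene the Cre targets here, is known as a mediator of ErbB2-driven cell motility.

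Levels are given as CPM: the counts of unique transcript molecules (UMIs) of a gene were summed over the cells of a cluster in a library and scaled so that all genes of those cells together make 1000000. Cluster 5 held 10661638 UMIs in the Memo1-mutant library and 701275 in the control library, so that control values rest on far fewer counts. Ratios carry an exact 95% interval for a pair of Poisson counts, and shares an exact Clopper-Pearson interval. Both cover counting error only, not differences between animals.

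Cluster 5 made up 9.78% (interval 9.29 to 10.3) of the Memo1-mutant library and 0.948% (0.765 to 1.16) of the control library. Of the cells outside the ameloblast lineage it made up 11.7% in the Memo1-mutant library and 1.37% in the control library. Of clusters 5 and 6 together it was 61.5% (59.4 to 63.5) in the Memo1-mutant library, against 19.7% (16.2 to 23.7) in the control library. These shares are a description of how the authors' clustering divided the cells: some genes that set cluster 5 apart differed in level between the libraries, and how far the piece of tissue taken set the shares was not tested. Cluster 6 had 847 cells in the Memo1-mutant library and 374 cells in the control library.

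The cells of cluster 5 were alike in depth and mitochondrial share in both libraries. The median cell had 7417 UMIs in the Memo1-mutant library and 7498 UMIs in the control library, and no cell had fewer than 1021. The median cell showed 2630.5 genes in the Memo1-mutant library and 2738.0 in the control library, and the median share of mitochondrial UMIs was 10.5% in the Memo1-mutant library and 11.3% in the control library. Over whole libraries the median depth was 6798 UMIs in the Memo1-mutant library and 2643 UMIs in the control library. Median depth was also close within several other clusters, such as cluster 3 with 13457.5 UMIs in the Memo1-mutant library and 13336 UMIs in the control library. A sign of RNA makeup did differ: Gm42418, a locus that overlaps ribosomal RNA sequence, took 14940 CPM of cluster 5 in Memo1-mutant cells and 33003 CPM in control cells (ratio 0.453), and Lars2 was at 333 CPM in Memo1-mutant cells and 913 CPM in control cells (ratio 0.365). Neither gene was past 2-fold in any of the 25 other clusters measured, where ratios ran from 0.587 to 1.07 for Gm42418 and from 0.527 to 1.04 for Lars2. With Gm42418 left out of the totals, besides enamel matrix, haemoglobin and mitochondrial transcripts, 105 genes were at least 2-fold higher in Memo1-mutant cells and 236 lower. With all counts in the totals these were 102 and 165. The part of this RNA makeup in the differences of single genes was not tested. The libraries shared 139 cell barcodes, of which 4 belonged to Memo1-mutant cells of cluster 5 and 0 to its control cells. The mice differed in sex: Xist had 24108 UMIs in Memo1-mutant cells of cluster 5 and 0 in its control cells, while the Y-linked gene Eif2s3y had 0 UMIs in Memo1-mutant cells and 62 in control cells. Memo1 itself was at 12.8 CPM (136 UMIs) in the Memo1-mutant library and 15.7 CPM (11 UMIs) in the control library, a ratio of 0.813 (0.440 to 1.67), which does not check the deletion because these are not the targeted cells.

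The label of cluster 5 as pulp mesenchyme matched its marker genes in both libraries. Of 14 pulp mesenchyme markers, 11 were measured above the limit used here (at least 20 CPM in 1 of the groups compared and at least 20 UMIs in all), and Tfap2b was at 0 in both libraries. Their summed level was 3325 CPM in the Memo1-mutant library and 3431 CPM in the control library, the third highest among the 29 clusters in both, after clusters 6 and 7. Endothelial cluster 8 came close, at 2928 CPM and 2644 CPM in these libraries, of which Igfbp3 alone made 2784 CPM and 2554 CPM. The rank of the sum is therefore weak support for the label. Msx1, a homeobox factor of tooth mesenchyme, was at 356 CPM in Memo1-mutant cells and 345 CPM in control cells, below cluster 3 with 768 CPM and 835 CPM. Lhx8, a LIM-homeobox factor of tooth mesenchyme, was at 61.2 CPM in Memo1-mutant cells and 57.0 CPM in control cells, second among the clusters in both libraries. Both factors thus stood at near-equal levels in both animals. Smoc2, a secreted calcium-binding matrix protein that marks apical incisor pulp, was at 1378 CPM in Memo1-mutant cells and 1539 CPM in control cells, below cluster 6 with 2780 CPM in the Memo1-mutant library and 2188 CPM in the control library.

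Lists of markers of other cell types summed to less than the pulp list in cluster 5. These lists differ in their number of genes and in the usual level of those genes, so the sums are not like for like. The 12 markers of dental follicle and periodontal ligament, another tooth mesenchyme, summed to 389 CPM in Memo1-mutant cells and 292 CPM in control cells, ranks 12 and 11 among the clusters, against 3325 CPM and 3431 CPM for the pulp list. The 10 odontoblast markers summed to 88.3 CPM in Memo1-mutant cells and 79.9 CPM in control cells, against 1287 CPM and 822 CPM in cluster 22 of the same libraries, and Mepe was at 0 in both. The 7 osteoblast markers summed to 165 CPM in Memo1-mutant cells and 131 CPM in control cells, against 7247 CPM and 2172 CPM in cluster 22. The 8 endothelial markers summed to 49.3 CPM in Memo1-mutant cells and 27.1 CPM in control cells. Fibroblast, pericyte, glial, neutrophil and erythroid lists summed to between 14.3 and 321 CPM in the 2 libraries. Of these the fibroblast list, at 269 CPM in Memo1-mutant cells and 321 CPM in control cells, ranked highest among the clusters, at ranks 6 and 7. Amelx, the main enamel matrix gene, was nevertheless counted in cluster 5 at 1026 CPM in Memo1-mutant cells and 1272 CPM in control cells, against 1151 CPM and 1954 CPM in cluster 6 and 818 CPM and 981 CPM in endothelial cluster 8 of these libraries. Of the 29 clusters, cluster 5 ranked 21st in the Memo1-mutant library and 19th in the control library for the summed dental epithelium markers, and no cell of cluster 5 was called ameloblast lineage in the deposited annotation. The part of free RNA in the Amelx level was not tested. The macrophage list stood apart, with 202 CPM in Memo1-mutant cells and 830 CPM in control cells, and is taken up with the comparison of the libraries.

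The genes highest in cluster 5 over all other cells are given as a description, since the clusters were made from these genes. Of the 15 genes named as highest over all other cells, 10 had their highest level among all 29 clusters in cluster 5 in both libraries. Lypd1, a GPI-anchored Ly6 family protein (chromosome 1, 125867622 to 125913101, minus strand, GRCm38), was at 705 CPM in Memo1-mutant cells and 1012 CPM in control cells of cluster 5, against 50.7 CPM and 45.7 CPM in all other cells of these libraries. Twist2, a basic helix-loop-helix repressor of mesenchymal differentiation (chromosome 1, 91801461 to 91848028, plus strand), was at 412 CPM in Memo1-mutant cells and 540 CPM in control cells, against 46.7 CPM and 38.4 CPM elsewhere. Both genes stood at least 8.82 times above the summed level of all other cells in each library, but much less above the neighbouring cluster 6, where Lypd1 was at 597 CPM in the Memo1-mutant library and 764 CPM in the control library and Twist2 at 235 CPM and 285 CPM. Scube1, a secreted and membrane-bound EGF and CUB domain protein, was 10.99 times the level of other cells in the Memo1-mutant library and 15.2 times in the control library. Lrp1b, a giant member of the LDL receptor family, was 16.1 times the level of other cells in the Memo1-mutant library and 36.6 times in the control library. Vit, which encodes the matrix protein vitrin, was 8.01 times that level in the Memo1-mutant library and 17.3 times in the control library. The rest of the 15 were Fcrl6, the metalloprotease gene Adamts20, the secreted factor gene Nell1, the protocadherin gene Pcdh10, the netrin receptor gene Unc5d, the non-coding gene Dlx6os1, the cell adhesion gene Nfasc, Shisa2, the collagen gene Col8a2 and the endopeptidase gene Ecel1.

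Several signalling genes also peaked in cluster 5. Gli3, a transcription factor of the hedgehog pathway, was highest of the 29 clusters in both libraries, at 79.2 CPM in Memo1-mutant cells and 106 CPM in control cells. Rspo2, a secreted enhancer of Wnt signalling, was likewise highest in both libraries, at 74.5 CPM in Memo1-mutant cells and 42.8 CPM in control cells. Rspo4, another R-spondin, was at 412 CPM in Memo1-mutant cells and 385 CPM in control cells and ranked second in the Memo1-mutant library and first in the control library. Fgf10, a growth factor that maintains the epithelial stem cells of the cervical loop, ranked second in both, at 40.2 CPM in Memo1-mutant cells and 85.6 CPM in control cells. Fgf3, another FGF ligand gene of tooth, was low in cluster 5, at 6.94 CPM in Memo1-mutant cells and 8.56 CPM in control cells, against 102 CPM and 144 CPM in cluster 22.

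**Figure D1:**
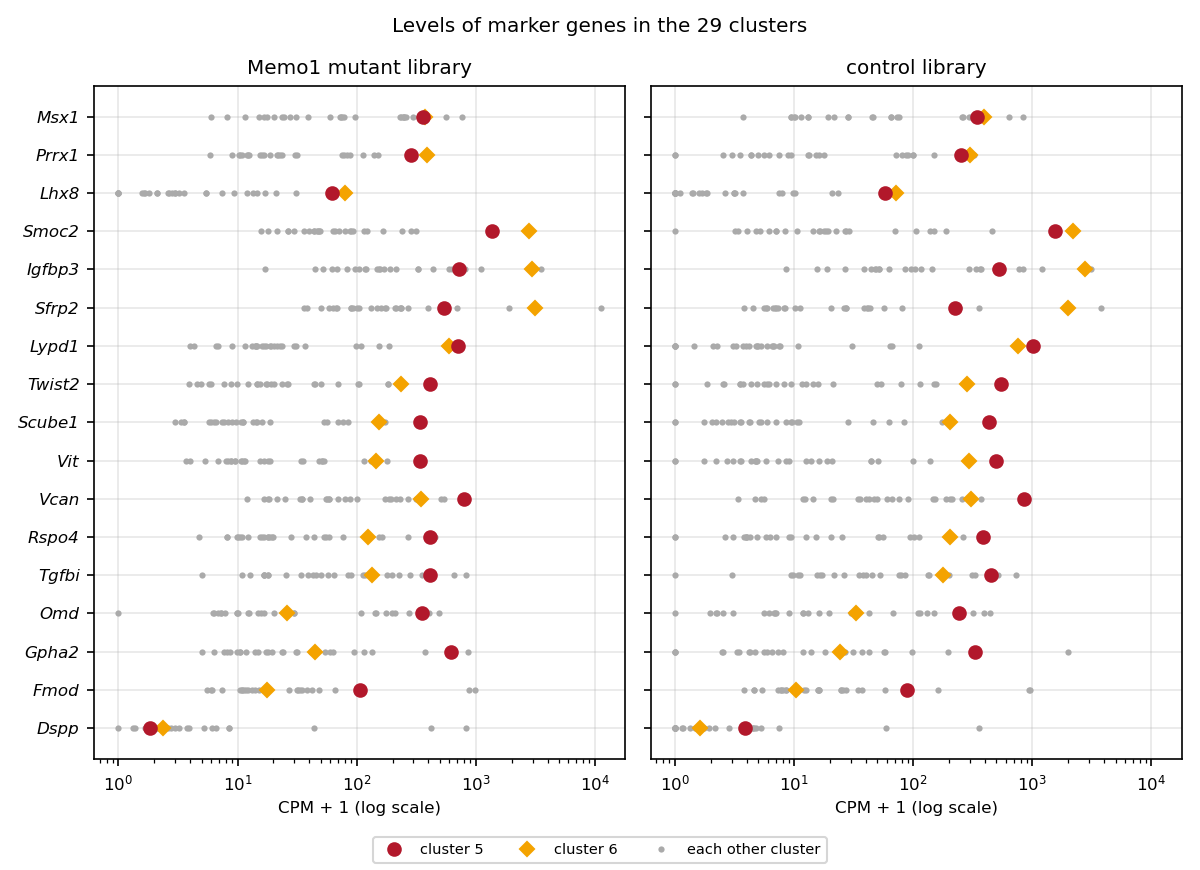
Levels of 17 marker genes in each of the 29 clusters, in CPM + 1 on a log axis, with the Memo1-mutant library left and the control library right; cluster 5 is a red circle, cluster 6 an orange diamond and each other cluster a grey point. Msx1 and Lhx8 lie together in clusters 5 and 6, Lypd1, Twist2 and Vcan are farthest right in cluster 5, and Dspp, the odontoblast marker, is at the low end.

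Cluster 6 was the nearest cluster to compare. Msx1 was there at 375 CPM in the Memo1-mutant library and 395 CPM in the control library, and Lhx8 at 78.3 CPM and 70.4 CPM, within 2-fold of cluster 5. None of the 25 measured mesenchymal transcription factor genes, with Msx1, Prrx1, Lhx8 and the Dlx genes among them, was at least 2-fold apart between clusters 5 and 6 in both libraries. Over all genes only 0.901% were higher and 2.08% lower by this rule, so none among 25 says little. In 1 library only, Sox4 and Osr2 (Memo1-mutant) and Twist1 (control) were at least 2-fold lower in cluster 5. The list medians were -0.31 (log2) in the Memo1-mutant library and -0.20 in the control library. Among the genes that differed were members of the proteoglycan and immediate early lists. Of 6439 genes measured in both clusters, 58 (0.901%) were at least 2-fold higher in cluster 5 in both libraries and 134 (2.08%) were at least 2-fold lower in both. These values describe the clusters and carry no test, since the clustering used the same genes.

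Some markers of other cell types also differed between clusters 5 and 6. Of 3 measured pericyte and smooth muscle markers, Tagln and Acta2 were lower in cluster 5 in both libraries, with list medians of -1.17 (log2) in the Memo1-mutant library and -4.48 in the control library. In the control library alone, all 3 measured erythroid markers were lower (median -3.09) and all 5 measured macrophage markers higher (median 2.51). Their part in the other differences was not tested.

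Some genes of proteoglycans, among them the small leucine-rich kind that bind collagen fibrils and set their spacing, were higher in cluster 5 than in cluster 6. Of 19 measured proteoglycan and matrix protein genes, 5 were at least 2-fold higher in cluster 5 in both libraries (Omd, Fmod, Lum, Hapln1 and Vcan) and 1 was lower (Mgp), with list medians of 0.47 (log2) in the Memo1-mutant library and 0.13 in the control library, against -0.01 over all genes in both. Omd, which encodes osteomodulin (chromosome 13, 49582462 to 49592822, plus strand), was at 351 CPM in cluster 5 and 25.1 CPM in cluster 6 of the Memo1-mutant library, and at 241 CPM in cluster 5 and 32.1 CPM in cluster 6 of the control library. Lum, which encodes lumican, was at 675 CPM in cluster 5 and 193 CPM in cluster 6 of the Memo1-mutant library, and at 434 CPM and 148 CPM in the same clusters of the control library. Both were higher in cluster 5 in each animal, Omd by 13.99-fold and 7.52-fold and Lum by 3.50-fold and 2.94-fold in Memo1-mutant and control cells. Fmod, fibromodulin, was 6.33-fold higher in Memo1-mutant cells and 9.22-fold higher in control cells. Omd, Lum and Fmod were not highest in cluster 5 among all clusters. In the Memo1-mutant and control libraries, cluster 22 had Omd at 492 CPM and 442 CPM and Lum at 2909 CPM and 3289 CPM. Fmod was at 990 CPM and 947 CPM in cluster 3, against 105 CPM and 87.0 CPM in cluster 5. Vcan, the large proteoglycan versican, was at 791 CPM in cluster 5 and 348 CPM in cluster 6 of the Memo1-mutant library, and at 854 CPM and 305 CPM in the same clusters of the control library, and its level in cluster 5 was the highest of all clusters in both. Hapln1, the link protein that ties versican-type proteoglycans to hyaluronan, was 5.603-fold higher in Memo1-mutant cells and 3.40-fold higher in control cells. Among 13 measured collagen genes Col12a1 was higher and Col8a1 lower in cluster 5 in both libraries. Col9a3, which encodes a chain of collagen IX and is not on that list, was 8.22-fold and 7.15-fold higher in Memo1-mutant and control cells.

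The largest ratio was that of Gpha2, which encodes the alpha subunit of thyrostimulin, a glycoprotein hormone (chromosome 19, 6226380 to 6227768, plus strand). It was at 619 CPM in cluster 5 and 43.4 CPM in cluster 6 of the Memo1-mutant library, and at 328 CPM and 23.3 CPM in the same clusters of the control library, so that cluster 5 stood 14.3-fold and 14.1-fold higher. In the control library 36.5% of its 230 UMIs lay in 1 cell. After each cell was thinned to 2000 UMIs, 24.1% of Memo1-mutant cells and 16.5% of control cells of cluster 5 had a Gpha2 UMI, against 0.848% and 1.17% of endothelial cells of cluster 8. Before thinning the shares in cluster 5 were 42.5% and 26.1% of Memo1-mutant and control cells. Cluster 5 was not the cluster with the highest Gpha2 level: cluster 7 had 864 CPM in the Memo1-mutant library and 2000.1 CPM in the control library. The pulp markers of cluster 7 summed to 4767 CPM and 4636 CPM in these libraries, of which Igfbp3 alone made 3530 CPM and 3117 CPM. Its dental follicle and periodontal ligament markers summed to 2797 CPM and 3846 CPM. Cthrc1, a secreted protein of collagen-producing mesenchyme, was highest of all clusters in cluster 5, with 270 CPM in cluster 5 and 81.2 CPM in cluster 6 of the Memo1-mutant library and 406 CPM and 117 CPM in the control library. Tgfbi, a matrix protein first found as a TGF-beta target, was 3.10-fold higher in Memo1-mutant cells and 2.54-fold higher in control cells. Enpp2, autotaxin, which makes lysophosphatidic acid, was 2.94-fold and 2.43-fold higher. The other genes named as highest over cluster 6 were Kif26b, Akap12, Crispld1, Lrp1b, Chka and Tmem100. Irs1, the insulin receptor substrate, was the single member called among 8 measured ErbB and MEMO1 effector genes, at 2.35-fold and 2.44-fold higher in Memo1-mutant and control cells.

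A few genes of secreted regulators were lower in cluster 5 than in cluster 6. At least 2-fold lower in both libraries were 2 of 9 measured insulin-like growth factor genes (Igfbp3 and Igfbp5), 1 of 12 Wnt genes (Sfrp2) and 1 of 18 BMP and TGF-beta genes (Grem1). Sfrp2, a secreted Wnt modulator of apical pulp (chromosome 3, 83766321 to 83774316, plus strand), was at 543 CPM in cluster 5 and 3126 CPM in cluster 6 of the Memo1-mutant library, and at 222 CPM and 2009 CPM in the same clusters of the control library. Igfbp3, an insulin-like growth factor binding protein, was at 726 CPM in cluster 5 and 2987 CPM in cluster 6 of the Memo1-mutant library, and at 528 CPM and 2765 CPM in the control library. Each was thus at no more than 0.243 of the cluster 6 level. H19, an imprinted non-coding RNA, was at 0.0657 and 0.118 of the cluster 6 level in Memo1-mutant and control cells. Grem1, Igfbp5, Crabp2, Angpt1, Mgp, Nr1d1 and Gpx3 were also at least 2-fold lower in both libraries. Of the measured genes of the hedgehog (7), FGF (6) and Notch (4) lists, none was at least 2-fold apart the same way in both libraries.

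**Figure D2:**
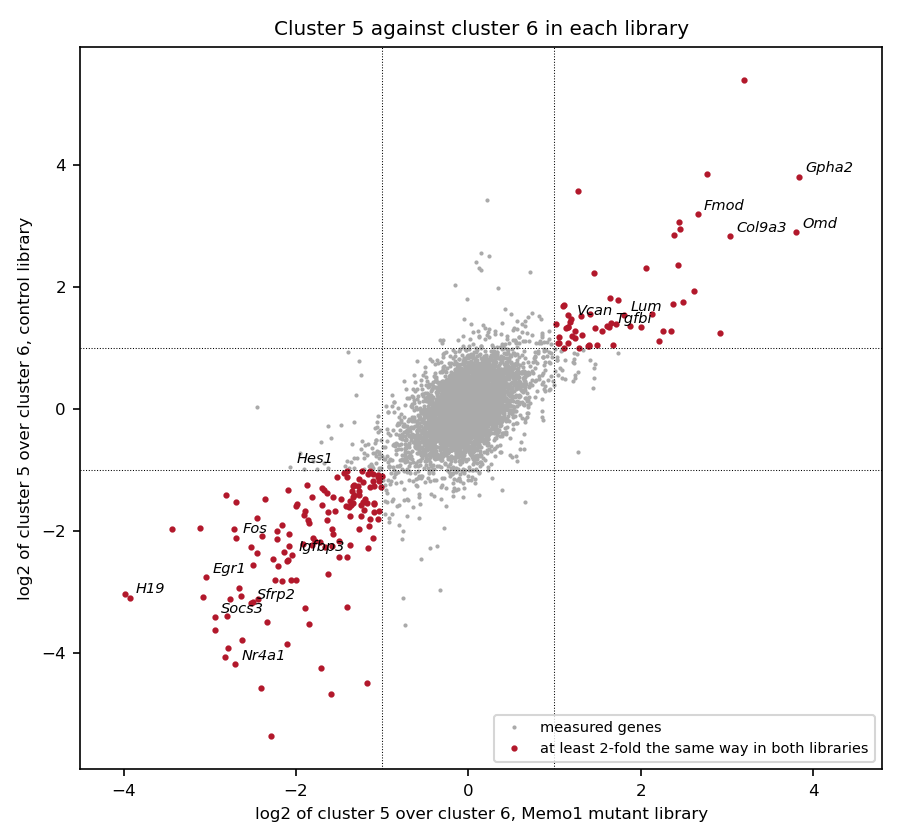
Each point is a measured gene with counts in both clusters of both libraries; the x axis is the log2 ratio of cluster 5 over cluster 6 in the Memo1-mutant library and the y axis the same in the control library. The 58 genes at least 2-fold higher and the 134 at least 2-fold lower in both libraries are red, with Gpha2, Omd and Fmod at the upper right and H19, Egr1, Socs3 and Nr4a1 at the lower left; dotted lines mark 2-fold.

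The immediate early genes were lower in cluster 5 than in cluster 6 almost as a whole. These genes encode short-lived transcription factors and signalling brakes that are switched on within minutes of a stimulus, enzymatic dissociation of tissue among them. Of 18 genes on the list 16 were measured, and 13 of these were at least 2-fold lower in cluster 5 in both libraries, 0 higher. The list's median log2 ratio was -2.24 in the Memo1-mutant library and -2.33 in the control library, against -0.01 over all genes in both. Fos, a subunit of the AP-1 factor, was at 463 CPM in cluster 5 and 3002 CPM in cluster 6 of the Memo1-mutant library, and at 703 CPM and 3017 CPM in the same clusters of the control library. Egr1, a zinc finger factor, was at 163 CPM in cluster 5 and 1344 CPM in cluster 6 of the Memo1-mutant library, and at 242 CPM and 1634 CPM in the control library. Junb, the partner of Fos in AP-1, was at 193 CPM in cluster 5 and 1094 CPM in cluster 6 of the Memo1-mutant library, and at 234 CPM and 2082 CPM in the control library. In both animals cluster 6 thus stood several-fold above cluster 5. Socs3, a brake on cytokine signalling, was at 0.130 of the cluster 6 level in Memo1-mutant cells and 0.0945 in control cells. Nr4a1, an orphan nuclear receptor, was at 0.154 and 0.0552 of that level, the control value in cluster 5 resting on 5 UMIs. The heat shock genes Hspa1a and Hspa1b, at 0.331 and 0.323 of the cluster 6 level in Memo1-mutant cells, were at 0.727 and 0.825 in control cells and so passed 2-fold in 1 library only.

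The difference lay across cells, not in a few of them. The 18 genes took a median 0.0912% of a cell's UMIs in Memo1-mutant cells and 0.0939% in control cells of cluster 5, against 0.958% and 1.16% in cluster 6 of these libraries. After thinning to 2000 UMIs, 30.2% of Memo1-mutant cells and 33.0% of control cells of cluster 5 had a Fos UMI (49.7% and 53.3% before thinning), against 74.6% and 84.1% in cluster 6. The same shares for Junb were 24.5% and 25.3% in cluster 5 of the Memo1-mutant and control libraries and 67.1% and 83.1% in cluster 6. Set among all clusters, the summed level of the list in cluster 5 ranked 19th of 29 in the Memo1-mutant library and 17th in the control library, and that of cluster 6 ranked 8th and 3rd. The highest sum was in the macrophage-rich cluster 4, with 26663 CPM in the Memo1-mutant library and 30242 CPM in the control library, against 1939 CPM and 2524 CPM in cluster 5. Cells of both clusters went through the same digestion in each library, and the part of that digestion in the difference was not tested.

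**Figure D3:**
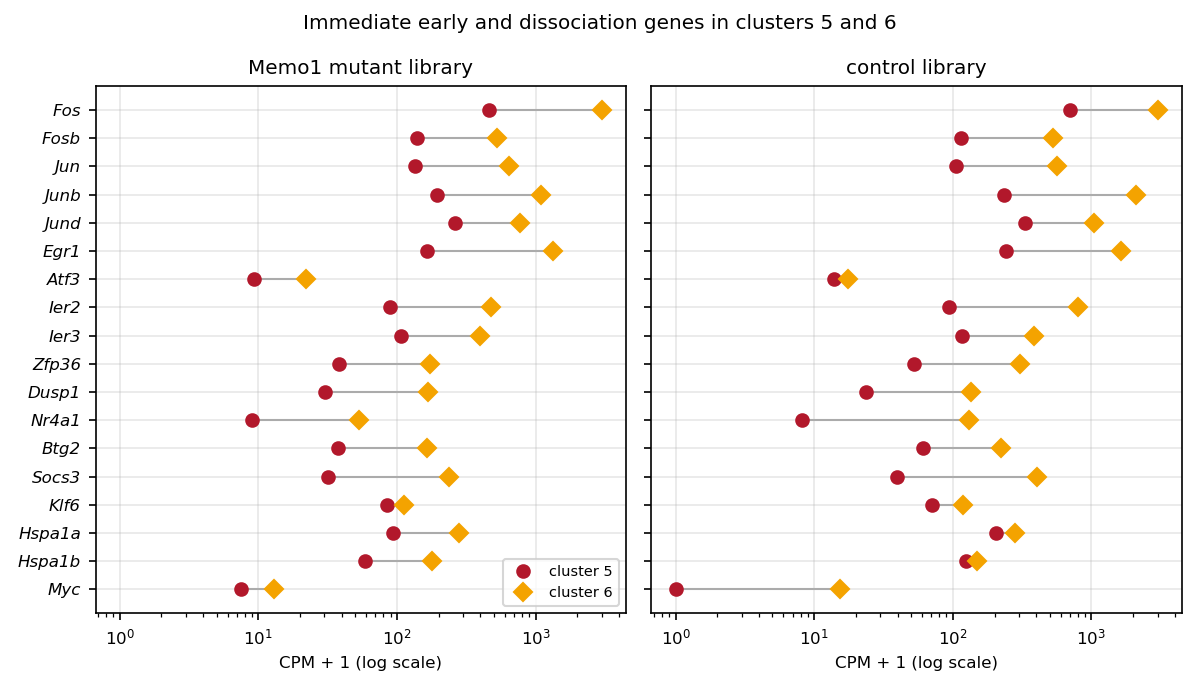
Levels of the 18 immediate early and dissociation genes in cluster 5 (red circle) and cluster 6 (orange diamond), in CPM + 1 on a log axis, with the Memo1-mutant library left and the control library right. In both libraries cluster 6 lies to the right of cluster 5 for each gene, and in the control library the pair is closest together for Atf3, Hspa1a and Hspa1b.

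The promoters of these genes are shown because the 13 genes moved together. RefSeq promoters of GRCm38.p6, from 250 bases before to 50 after the start of the gene, were at hand for 11 of the 13. A gene was counted when any of its promoters held a match. The cyclic AMP response element, TGACGTCA, reads the same on both strands. It was present in 2 of the 11 genes (18.2%), Btg2 and Dusp1, against 549 of all 27025 genes with a promoter (2.03%). The CArG box, the binding motif of serum response factor, was searched on both strands and present in 1 of the 11 (9.09%), Zfp36, against 488 of 27025 (1.81%). A match is a run of letters and not evidence of binding, and no match says only that the letters are not in this window. The 3 promoters with a match follow on the minus strand, 5′ to 3′, with the motif in capitals. Btg2 encodes an antiproliferative protein, Dusp1 a phosphatase that switches off MAP kinases, and Zfp36 tristetraprolin, which marks short-lived mRNAs for decay. They lie at chr1:134079106-134079405, chr17:26508423-26508722 and chr7:28379179-28379478.
Btg2: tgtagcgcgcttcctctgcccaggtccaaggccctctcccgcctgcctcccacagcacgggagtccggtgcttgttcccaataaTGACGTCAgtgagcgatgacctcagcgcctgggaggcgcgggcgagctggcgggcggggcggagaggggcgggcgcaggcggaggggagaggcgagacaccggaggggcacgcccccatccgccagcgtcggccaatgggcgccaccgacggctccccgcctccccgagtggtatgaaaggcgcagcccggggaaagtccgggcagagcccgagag
Dusp1: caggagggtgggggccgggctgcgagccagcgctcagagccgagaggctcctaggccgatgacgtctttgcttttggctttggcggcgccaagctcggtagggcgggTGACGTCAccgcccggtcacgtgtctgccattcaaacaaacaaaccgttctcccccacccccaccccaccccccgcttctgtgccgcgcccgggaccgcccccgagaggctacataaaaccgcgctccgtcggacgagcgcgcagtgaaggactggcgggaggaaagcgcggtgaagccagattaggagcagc
Zfp36: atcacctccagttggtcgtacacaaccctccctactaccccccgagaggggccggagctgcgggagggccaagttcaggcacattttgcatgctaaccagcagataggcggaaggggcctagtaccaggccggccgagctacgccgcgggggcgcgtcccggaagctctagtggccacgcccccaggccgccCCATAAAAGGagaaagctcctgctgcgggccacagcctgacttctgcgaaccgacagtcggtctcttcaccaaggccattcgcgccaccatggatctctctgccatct
In cluster 5 these 3 genes were at 0.223, 0.176 and 0.216 of the cluster 6 level in Memo1-mutant cells, in the order listed, and at 0.269, 0.171 and 0.168 in control cells.

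Between the animals, most genes of cluster 5 were within 2-fold. Of 6881 measured genes, 102 (1.48%) were at least 2-fold higher and 165 (2.4%) at least 2-fold lower in the Memo1-mutant library, with a median log2 ratio of -0.03. With composition-corrected (TMM) totals the counts were 130 higher and 130 lower, so that the balance of directions depends on the scaling. In cluster 6 the same rule gave 46 of 6705 genes higher (0.686%) and 67 lower (0.999%). Clusters 5 and 6 come from the same 2 mice, so the ratios in cluster 6 are given side by side and are not independent support.

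The genes named as higher in the Memo1-mutant library were headed by Ogn, Nts, Tnc and Rorb. Ogn, osteoglycin, a small leucine-rich proteoglycan (chromosome 13, 49608046 to 49624501, plus strand), was at 137 CPM in Memo1-mutant cells and 19.96 CPM in control cells of cluster 5, a ratio of 6.87 (4.08 to 12.6) that rests on 14 control UMIs. In cluster 6 its ratio was 1.75. Nts, the neuropeptide neurotensin (chromosome 10, 102481756 to 102490486, minus strand), was at 222 CPM in Memo1-mutant cells and 42.8 CPM in control cells, a ratio of 5.18 (3.62 to 7.70), and 2.91 in cluster 6. Nts was at least 2-fold higher in 7 of the 14 other clusters measured and Ogn in 4 of 15, so neither difference was confined to cluster 5. Tnc, tenascin-C, an adhesion-modulating matrix protein, was at 88.5 CPM in Memo1-mutant cells and 17.1 CPM in control cells (ratio 5.17, 2.95 to 10.1). Rorb, an orphan nuclear receptor (chromosome 19, 18930605 to 19111196, minus strand), was at 107 CPM in Memo1-mutant cells and 22.8 CPM in control cells (ratio 4.70, 2.88 to 8.24), with 3.93 in cluster 6. Rorb was a gene of these pulp cells in both animals: its level in cluster 5 was the second highest of the 29 clusters in each library, and endothelial cluster 8 had 1.45 CPM in the Memo1-mutant library and 0.257 CPM in the control library. After thinning, 18.9% (16.8 to 21.1) of Memo1-mutant cells and 6.59% (2.46 to 13.8) of control cells had a Rorb UMI (43.0% and 11.96% before thinning). In cluster 6 the shares were alike, at 23.4% and 5.91%. In cluster 8 they were 0 of 590 and 0 of 256 cells, for which the intervals reach 0.623% and 1.43%.

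Some of the higher genes had ratios near 1 in cluster 6. Angpt4, an angiopoietin that binds the TEK receptor of vessels, was at 172 CPM in Memo1-mutant cells and 47.1 CPM in control cells of cluster 5 (ratio 3.65, 2.59 to 5.31), with a ratio of 1.11 in cluster 6. Wif1, a secreted Wnt inhibitor, was at 234 CPM in Memo1-mutant cells and 82.7 CPM in control cells (ratio 2.82, 2.18 to 3.73), with 1.12 in cluster 6. In other clusters, Angpt4 was at least 2-fold higher in the Memo1-mutant library in 4 of 8 measured, with a ratio of up to 5.76, and Wif1 in 5 of 22. These differences between the clusters were not tested. Sfrp2 was at 543 CPM in Memo1-mutant cells and 222 CPM in control cells (ratio 2.44, 2.08 to 2.88), but it was also at least 2-fold higher in the Memo1-mutant library in 20 of the 25 other clusters measured, endothelial cluster 8 among them with 172 CPM against 4.88 CPM in the control library. Its ratio in cluster 5 therefore stands beside a higher summed level in most other clusters of that library. Erdr1 was at least 2-fold higher in all 24 other clusters measured. The other named higher genes were S100a4, the prostaglandin transporter gene Slco2a1, Cpe, Dock10, Igf1, Lhfp and Rnaset2b, which has a close copy, Rnaset2a, with which reads may be shared. Cartpt, which encodes the CART neuropeptide, had 472 UMIs (44.3 CPM) in Memo1-mutant cells and 0 UMIs in control cells, at least 10.3-fold higher when the control library is given 3 UMIs. In all 7 measured of 25 other clusters with at least 50 cells a library, Cartpt was at least 2-fold higher in Memo1-mutant cells. Where the control library had 0 UMIs, as in cluster 6, only Memo1-mutant cells could bring a cluster to the limit for measurement. The direction was then fixed by that limit. Whether the gap runs through the whole library was not tested. In cluster 6 Cartpt had 390 UMIs in the Memo1-mutant library and 0 in the control library. A Cartpt UMI was held by 4.51% of the Memo1-mutant cells of cluster 5, against 1.69% of those of cluster 8.

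The genes named as lower in the Memo1-mutant library were headed by Gm10709, Lyz2, Gm8797, Cwc22 and Cd74, which are described further on, and included genes of pulp cells. Foxd1, a forkhead factor of apical pulp (chromosome 13, 98354242 to 98359305, plus strand), was at 78.2 CPM in Memo1-mutant cells and 234 CPM in control cells of cluster 5, a ratio of 0.335 (0.283 to 0.398), and in cluster 6 at a ratio of 0.375. After thinning, 12.6% (10.9 to 14.5) of Memo1-mutant cells and 33.0% (23.5 to 43.6) of control cells had a Foxd1 UMI (32.9% and 71.7% before thinning). In cluster 6 the shares were alike, at 12.4% and 31.7%. In endothelial cluster 8 of these libraries they were 2 of 590 and 0 of 256 cells, for which the intervals reach 1.22% and 1.43%. These intervals cover the counting of cells in 1 library each and do not bear on a difference between animals. Hsd11b2, the enzyme that inactivates glucocorticoids, was at 213 CPM in Memo1-mutant cells and 493 CPM in control cells (ratio 0.431, 0.385 to 0.484), with 0.364 in cluster 6. Apod, a lipid-binding lipocalin, was at 122 CPM in Memo1-mutant cells and 446 CPM in control cells (ratio 0.272, 0.240 to 0.309), with 0.262 in cluster 6. Thy1, the cell surface protein CD90, was at 31.1 CPM in Memo1-mutant cells and 136 CPM in control cells (ratio 0.229, 0.182 to 0.291), with 0.266 in cluster 6. Enpp2 was at 176 CPM in Memo1-mutant cells and 469 CPM in control cells (ratio 0.376, 0.334 to 0.424), with 0.310 in cluster 6. In other clusters Apod went the other way, at least 2-fold higher in the Memo1-mutant library in 5 of the 8 measured.

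Other lower genes had ratios near 1 in cluster 6. Igf2, insulin-like growth factor 2 (chromosome 7, 142650766 to 142666816, minus strand), was at 235 CPM in Memo1-mutant cells and 650 CPM in control cells of cluster 5 (ratio 0.361, 0.327 to 0.400), while cluster 6 had 582 CPM in the Memo1-mutant library and 553 CPM in the control library. Hes1, a target of Notch signalling, was at 159 CPM in Memo1-mutant cells and 359 CPM in control cells (ratio 0.442, 0.387 to 0.506), with 0.964 in cluster 6. Whether the ratios differ between clusters 5 and 6 was not tested. The predicted gene Gm10709, at 1.03 CPM in Memo1-mutant cells and 281 CPM in control cells, was at least 2-fold lower in all 25 other clusters measured, as was Gm8797, and Cwc22 was so in 22 of 23. For these genes the gap runs through the whole Memo1-mutant library.

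**Figure D4:**
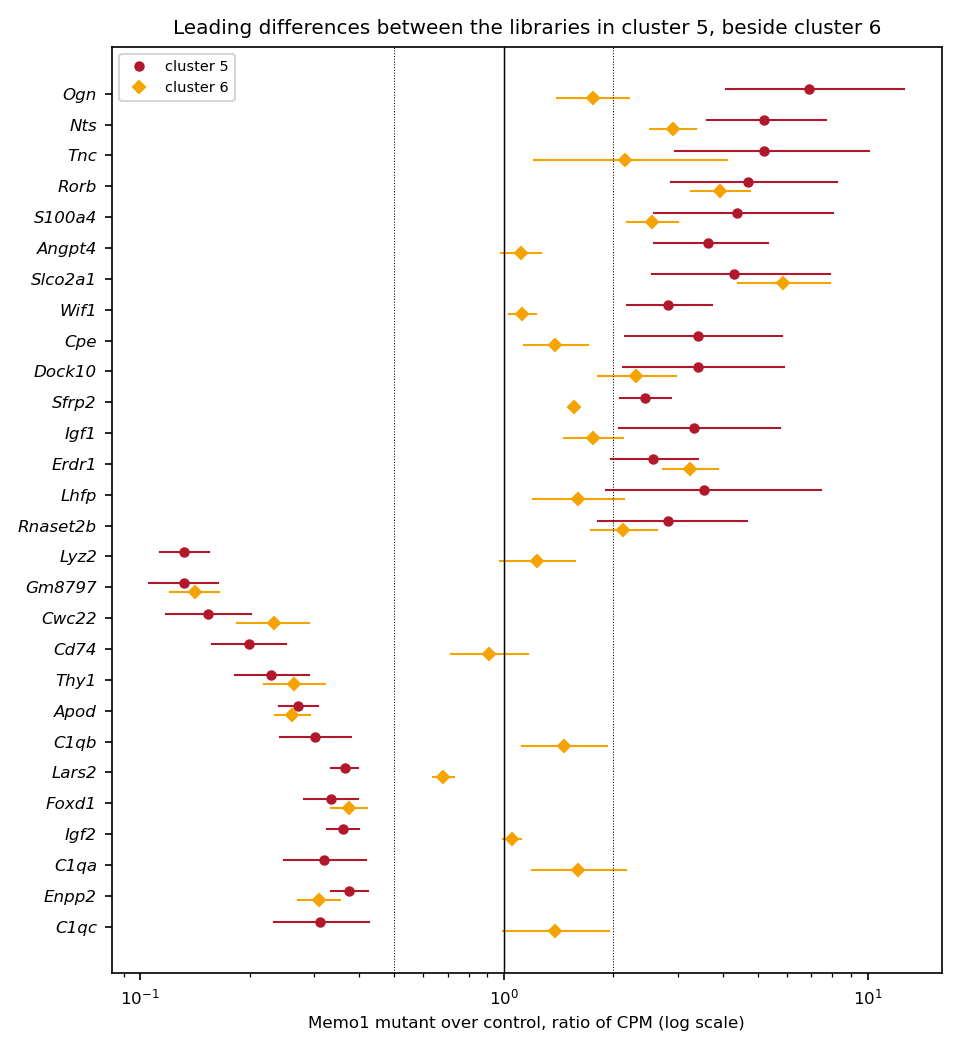
Ratio of CPM in Memo1-mutant over control cells on a log axis, with its 95% counting interval, in cluster 5 (red circle) and cluster 6 (orange diamond), for named genes (Gm10709, whose ratio of 0.00367 lies off the scale, is left out). Rorb, Foxd1, Apod, Thy1 and Enpp2 overlap between the clusters, whereas Angpt4, Wif1, Igf2 and the macrophage genes Lyz2 and C1qa to C1qc lie near or past 1 in cluster 6.

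By pathway, the lists stand beside shares over all measured genes of 1.48% higher and 2.4% lower. The pulp, matrix and collagen counts given here lie above these shares in the direction named, but the lists are small and no test was made. Of 11 measured pulp mesenchyme markers 3 were lower in Memo1-mutant cells (Foxd1, Fgf10 and Lhx6) and 0 higher, with a median log2 ratio of 0.05. Fgf10 was at 40.2 CPM in Memo1-mutant cells and 85.6 CPM in control cells, a ratio of 0.470 (0.358 to 0.627), with 0.868 in cluster 6. Of 21 proteoglycan and matrix genes 5 were higher (Tnc, Sparcl1, Mgp, Ogn and Hapln1) and 0 lower, with a median of 0.28, and for Sparcl1 and Mgp the control library had 2 and 4 UMIs. Of 14 collagen genes 2 were higher (Col8a1 and Col12a1) and 0 lower, with a median of 0.30, and the same 2 were past 2-fold in cluster 6. In cluster 6 both lists had a median of 0.29, so these medians were not particular to cluster 5.

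The hedgehog, BMP and growth factor lists held 1 or 2 genes each past 2-fold, beside shares over all measured genes of 1.48% higher and 2.4% lower. In lists this small such counts say little. In the hedgehog list 1 of 7 genes was at least 2-fold lower, Hhip, a decoy receptor of hedgehog ligands that is itself a pathway target, at 13.8 CPM in Memo1-mutant cells and 44.2 CPM in control cells (ratio 0.312, 0.211 to 0.476). Ptch1, the hedgehog receptor and another target gene, was at 423 CPM in Memo1-mutant cells and 806 CPM in control cells, a ratio of 0.525 (0.480 to 0.574) that did not pass 2-fold, and Gli1 was at a ratio of 0.884 (0.636 to 1.26). In the BMP and TGF-beta list 2 of 17 genes were lower, the ligand gene Bmp5 at a ratio of 0.474 (0.322 to 0.719) and Fst, the activin antagonist follistatin, at 0.397 (0.276 to 0.585). Bmp4 was at 132 CPM in Memo1-mutant cells and 212 CPM in control cells, a ratio of 0.621 (0.524 to 0.740). In the insulin-like growth factor list Igf1 was higher and Igf2 lower among 9 measured genes, and Igfbp4 was at a ratio of 0.583 (0.551 to 0.618). In the retinoic acid list Crabp2, a cytoplasmic carrier of retinoic acid, was higher, at a ratio of 2.33 (1.35 to 4.41).

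Lists of the cell's own state held few genes past 2-fold, beside shares over all measured genes of 1.48% higher and 2.4% lower. In lists this small a count of 0 says little. None of the 15 measured genes of endoplasmic reticulum folding, the 8 of ErbB receptors and MEMO1 effectors, the 6 of the circadian clock, the 5 p53 targets or the 4 of S phase was at least 2-fold apart, with list medians between -0.26 and 0.01, and no gene of the G2 and M phases reached the limit for measurement. Of 13 hypoxia and glycolysis genes 3 were lower in Memo1-mutant cells (Hk2, Pgk1 and Vegfa), with a median of -0.34. Hk2, hexokinase 2, was at 8.35 CPM in Memo1-mutant cells and 47.1 CPM in control cells, where it had 33 UMIs. Of 15 measured immediate early genes 0 were higher and 2 lower, Hspa1a and Hspa1b, so the heat shock genes and not Fos or Egr1 passed 2-fold between the libraries. Of 9 interferon-responsive genes Isg15 and Ifit1 were higher, and neither was past 2-fold in cluster 6.

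All 6 measured macrophage genes were lower in the Memo1-mutant library, and most of this lay in 1 cell. Lyz2, lysozyme, was at 46.0 CPM in Memo1-mutant cells and 348 CPM in control cells of cluster 5, but 86.1% of the 244 control UMIs came from a single cell. Without that cell the ratio of Lyz2 was 0.920 (0.650 to 1.34), and those of C1qa, C1qb and C1qc, the chains of complement C1q, were 0.718, 0.758 and 0.809. Cd74, the invariant chain of MHC class II, was at 28.3 CPM in Memo1-mutant cells and 143 CPM in control cells, and its ratio without the cell was 0.378 (0.280 to 0.519). The 6 listed macrophage genes thus came to within 2-fold once 1 cell of 92 was left out, Tyrobp and Fcer1g with ratios of 0.744 and 0.694. Among the cells of cluster 5, markers of other cell types took over 1% of UMIs in 9 Memo1-mutant cells and 2 control cells, and doublets were not called.

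Cluster 5 was not uniform within. Dividing its cells into 4 sub-clusters with genes that were within 2-fold between the libraries gave a group a of 505 Memo1-mutant and 44 control cells, a group b of 477 and 19, a group c of 192 and 19, and a group d of 178 and 10. The number 4 was chosen after the data were seen, and with all eligible genes the division matched only in part (adjusted Rand index 0.654). With 3 groups the index was 0.45 without and 0.449 with the genes past 2-fold between the libraries, and with 5 groups 0.580 and 0.508, so the division depends on these choices. All 4 groups held cells of both libraries. As shares of cluster 5, group a was 37.4% of Memo1-mutant cells and 47.8% of control cells, and group b 35.3% and 20.7%. No direction is read from these shares, since genes leading the groups differed in level between the libraries.

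Group a had the highest level of 10 of the 15 genes named as highest in cluster 5 over all other cells. The exceptions were Nell1, Pcdh10, Shisa2 and Col8a2, highest in group c, and Unc5d, highest in group b. It was led by Ecel1, Hsd11b2, Lrp1b, Lypd1 and Prokr2, and Lypd1 was at 1183 CPM in group a, 609 CPM in group b, 372 CPM in group c and 171 CPM in group d. Foxd1 was at 132 CPM in group a and 92.3, 36.7 and 21.9 CPM in groups b, c and d. Group b was led by Cartpt, Thbs4, S100a4, S100a6 and Slco2a1 and was the group most like cluster 6 in Smoc2, with 2567 CPM against 1218 CPM in group a. Its Rorb level of 212 CPM was also the highest of the 4. Of the leading genes of group b, Cartpt, S100a4 and Slco2a1 were at 140, 193 and 187 CPM in Memo1-mutant cells and 0, 15 and 30 CPM in control cells. Thbs4 and S100a6 were high in both, at 105 and 381 CPM in Memo1-mutant cells and 165 and 195 CPM in control cells. Group c had Dlk1, Ogn, Mia and Grem1 among its leading genes, and Gpha2 was at 2035 CPM there, against 143 CPM in group a, 116 CPM in group b and 1312 CPM in group d. Group d was led by Lect1, Tnc, Kcnj15, Khdrbs3 and Bglap, with Vcan at 1414 CPM, Lum at 1182 CPM and Smoc2 at only 73.9 CPM, and its cells were the deepest, at a median 10714.5 UMIs in the Memo1-mutant library and 8506.5 in the control library. Within cluster 5 the levels of Vcan and Lum were therefore highest in group d and that of Gpha2 in groups c and d. Not all leading genes of these groups led in both animals. Mia was at 186 CPM in Memo1-mutant cells and 6.34 CPM in control cells of group c, and Bglap at 97.9 CPM and 0 in group d. Dlk1 in group c (710 CPM and 545 CPM) and Lect1 in group d (175 CPM and 331 CPM) were high in both.

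The immediate early genes also varied inside cluster 5. The list took a median 0.0690% of UMIs in group a and 0.0683% in group d, 0.127% in group b and 0.193% in group c, all below the 0.958% and 1.16% of cluster 6. Fos was at 205, 701, 1141 and 218 CPM in groups a to d. The highest group within cluster 5 thus stayed under the level of Fos in cluster 6 in either library.

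Some differences between the animals were seen within group a alone, an alternative chosen after the data were seen. Foxd1 had a ratio of Memo1-mutant over control cells of 0.382 there, Igf2 of 0.296, Apod of 0.166 and Thy1 of 0.391, and Nts of 4.57 and Rorb of 6.57. These ratios kept the direction and stayed past 2-fold, but group a held only 44 control cells with 325544 UMIs. No interval is given for these ratios, and genes low in the control library, such as Rorb and Nts, rest on few counts there. Sfrp2 had a ratio of 1.71 in group a, within 2-fold. In group c Ogn was at 673 CPM in Memo1-mutant cells and 31.7 CPM in control cells, of which there were 19 with 157834 UMIs.

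**Figure D5:**
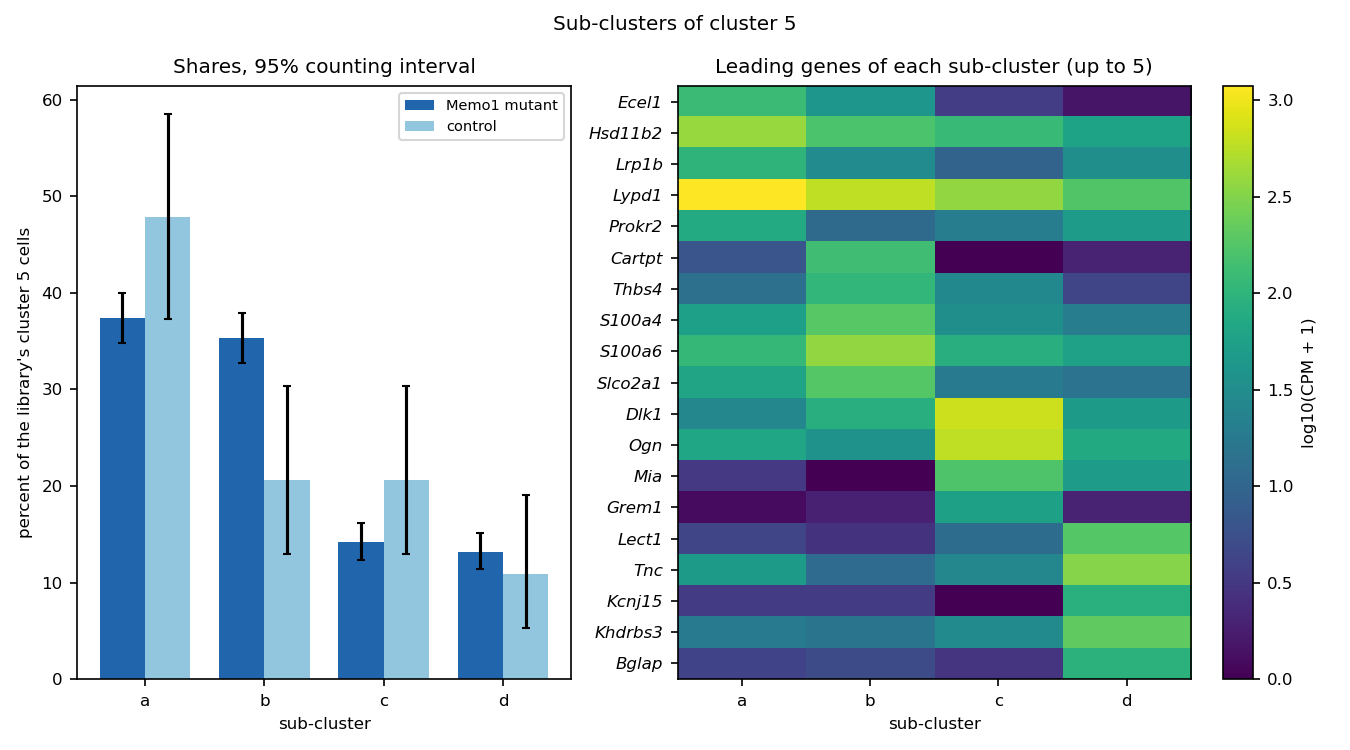
Left, the share of each library's cluster 5 cells in sub-clusters a to d, Memo1-mutant library left of control library in each pair, with 95% Clopper-Pearson intervals. Right, levels of leading genes of each sub-cluster (up to 5) over both libraries as log10(CPM + 1), each highest in its own sub-cluster; 37.4% of Memo1-mutant cells and 47.8% of control cells were in sub-cluster a.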

How the data were processed

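Cells from the cervical loop region of 1 Memo1-mutant and 1 control mouse (about 10000 cells loaded for each, per the labels' protocols) gave 1 library each. The authors deposited raw UMI counts for 19626 genes, and cluster numbers and lineage calls per cell, made with Cell Ranger and Seurat version 3 on mm10 per the submitters' processing notes; aligner and clustering settings are not given in the sources used here. Library totals were 120862385 UMIs (Memo1-mutant) and 79518656 UMIs (control).

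Counts were summed per cluster and library and scaled to CPM. A gene was measured with at least 20 CPM in a group compared and 20 counts in all. With 1 library a group no p-value was computed; a gene was called at 2-fold or more, and ratios carry exact 95% Poisson intervals. Genes were named by rule: at least 50 CPM and 50 counts, the 15 in each direction whose interval bound lay farthest from 1 (sex-linked Xist, Tsix and Y genes and those for haemoglobins, ribosomal proteins and mitochondrial transcripts left out), plus members of gene lists, leading genes of sub-clusters and the targeted gene. Some genes that met these rules are not reported here. The members, gene lists and tests were chosen with earlier results of these data known. Sub-clusters came from k-means (4 groups, 10 principal components of 500 variable genes at 30 CPM or more), thinning drew 2000 UMIs a cell, and shallower cells (12 Memo1-mutant and 1 control cell of cluster 5) were left out there. Python 3.11.15, numpy 2.4.6, pandas 2.3.3, scipy 1.17.1, scikit-learn 1.9.0, matplotlib 3.10.9, R 4.3.3 and edgeR 4.0.16 (TMM factors only) were used; the ratio step was tested on simulated data. Gene positions are GENCODE's on GRCm38. No doublet caller was run. Alternatives were other scalings, stricter cells, thinning, means over cells and cell exclusions.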

Additional observations from a re-analysis of the deposited data

Results flagged for a closer look

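Fcer1g, which encodes the gamma chain of Fc receptors and is a macrophage marker, moved in opposite directions in the pulp clusters. In cluster 5 it was at 23.5 CPM in Memo1-mutant cells and 61.3 CPM in control cells, a ratio of 0.382 (0.276 to 0.542), and in cluster 6 at 21.2 CPM in Memo1-mutant cells and 10.4 CPM in control cells, a ratio of 2.04 (1.38 to 3.10). It was the 1 gene past 2-fold in opposite directions in clusters 5 and 6, and the difference between the clusters was not tested. Of its 43 control UMIs in cluster 5, 46.5% came from the cell that also held most Lyz2, and without that cell the ratio was 0.694 (0.452 to 1.12).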

How the results depend on the processing

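No paired analysis was possible because each group has 1 library. Counts of genes at least 2-fold higher and lower in Memo1-mutant cells of cluster 5 (102 and 165) became 340 and 494 with strict cell limits (552 Memo1-mutant and 28 control cells kept), 489 and 632 after thinning, 594 and 1377 without a filter on low values and 282 and 374 within sub-cluster a, each resting on fewer counts or fewer cells; with clusters 5 and 6 joined 60 were higher and 129 lower. Scaling moved the balance: TMM factors gave 130 and 130, median-of-ratios factors 118 and 146. Totals without enamel matrix, haemoglobin and mitochondrial transcripts gave 113 and 198, and 105 and 236 when Gm42418 was also left out. Cluster 5 over cluster 6 gave 268 higher and 283 lower without a filter, against 58 and 134. The share of cluster 5 was 12.5% of Memo1-mutant and 1.33% of control cells with at least 1000 UMIs, 11.7% and 1.37% outside the ameloblast lineage, and 61.5% and 19.7% of clusters 5 and 6. Ratios of Memo1-mutant over control cells crossed 1 without cells over 1% foreign markers (C1qa 1.16, C1qc 1.12, Lyz2 1.31), within sub-cluster a (C1qa 2.24, C1qc 1.297, Lyz2 1.15) and with clusters 5 and 6 joined (Sfrp2 0.868); the cause was not tested. The single-gene ratios were taken again under each setting, 31 between the libraries and 60 for cluster 5 over cluster 6. Counted once per ratio and setting, 320 of the others between the libraries stayed within their counting interval and 76 moved beyond it with the same direction. For cluster 5 over cluster 6 these were 590 and 70. With strict cell limits 16 of the 31 and 29 of the 60 moved so, and with the clusters joined 19 of the 31. Control values are limited by 92 cells.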
